A study of Arabidopsis thaliana with 12 samples.

Results

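The chloroplast NADH dehydrogenase-like (NDH) complex sits in the thylakoid membrane and passes electrons from reduced ferredoxin to plastoquinone. It thereby serves cyclic electron flow around photosystem I and chlororespiration, and it is assembled from subunits of both the plastid and the nuclear genome. Several plastid ndh transcripts must be edited, by conversion of a C to a U, before they encode the right protein, and each site is recognised by a nuclear-encoded pentatricopeptide repeat protein. The 5 genes described here were chosen by locus: the subunits NDHS (AT4G23890) and NDHN (AT5G58260), PIFI (AT3G15840), and the editing factors CRR21 (AT5G55740) and OTP85 (AT2G02980). Each of the 5 was measured by 1 probe that the platform annotation lists with a single gene, out of 690 probes with 1 known locus and 3439 probes on the array. All 5 genes are nuclear. No plastid ndh transcript is described here.

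The samples were total RNA of Arabidopsis thaliana wild type, ecotype Columbia 0, with 6 samples per group. Plants of the cold group had been kept for 24 h in medium light at 4 °C, a treatment that the labels call photoinhibitory. Plants of the recovery group had received the same 24 h in the cold, followed by a further 24 h at 20 °C in medium light, so both groups share the cold treatment, and no untreated plants are part of the comparison. The labels name neither the tissue nor separate plants or cultures. The p-values therefore cover no more than the spread among these 12 samples, which could be technical, and precision is limited by the number of arrays. None of the 5 mesophyll, 4 root and 4 epidermal marker genes listed for a check of the tissue was on a probe of its own. Since the RNA was bulk RNA, fewer cells of a type and less RNA per cell cannot be told apart.

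The deposited signals are linear array values between 0 and 100, and their scaling is not stated in the sources used here. The largest signal was 100 in every sample except cold sample 4, where it was 98.03. Their distribution differed between the groups. In cold the median signal of an array averaged 0.295 ± 0.0183, and in recovery it averaged 0.108 ± 0.0158 (SD, n = 3 averaged sample pairs), a 2.73-fold difference. The 90th percentile differed 1.45-fold, from 1.66 ± 0.0830 to 1.15 ± 0.0567, and the 99th percentile was 12.6 ± 0.467 in cold and 12.7 ± 0.356 in recovery. Dim probes were thus lower in recovery while the bright end of the arrays was at the same level. Whether the scaling set that level was not tested. The 5 genes are therefore described by deposited signal, by rank on the array and by the change after quantile normalization, which makes the 12 distributions equal. Within a group, sample 1 was averaged with 2, 3 with 4 and 5 with 6 before tests, giving n = 3 per group. Changes are recovery minus cold on the scale of log2(signal + 0.0415), which understates changes of dim probes. They were tested with limma; p-values were adjusted by Benjamini-Hochberg over the 3439 probes, and an adjusted p under 0.05 passed.

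After quantile normalization the 2 subunits moved in opposite directions in recovery, and neither editing factor passed the test. NDHS fell by 0.97 on the log2 scale, a direction that turned when only the array medians were made equal, and NDHN rose by 0.76, a direction that turned for the values as deposited. PIFI, CRR21 and OTP85 missed the threshold. Thus 2 of 5 genes passed, against 40.7% of all probes in either direction, 21.4% higher and 19.3% lower, so the share is close to the background of this comparison. The median change of the 5 genes was -0.28, that of the 690 probes with 1 known locus 0.082 and that of all probes 0.11. The direction for PIFI also depended on the scaling.

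**Figure D1:**
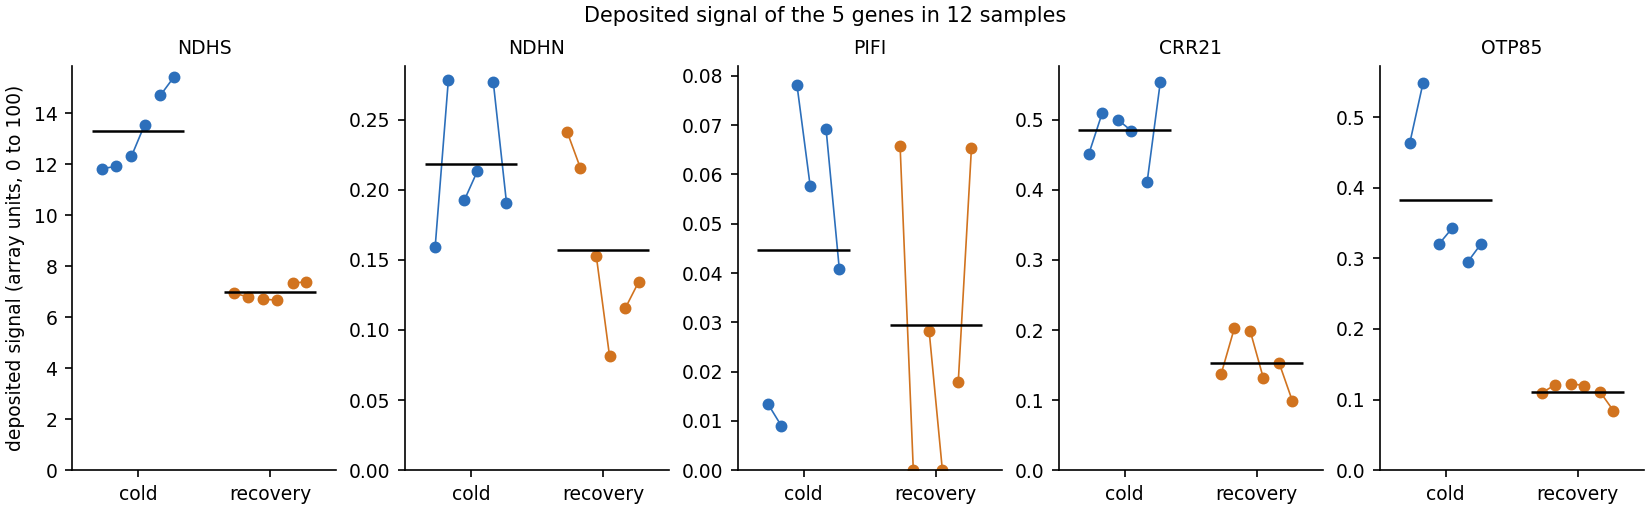
Deposited signal (vertical axes, array units, each starting at 0) of the 5 genes in the 6 cold and 6 recovery samples. Each point is 1 sample, lines join the samples averaged as a pair and black bars are group means. NDHS, CRR21 and OTP85 have all recovery samples below all cold samples, as do 49.2% of all probes, while NDHN and PIFI overlap between groups.

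NDHS forms the docking site for ferredoxin on the stromal arm of the NDH complex and is also known as CRR31. Its deposited signal in cold samples 1 to 6 was 11.8, 11.9, 12.3, 13.5, 14.7 and 15.4. In recovery samples 1 to 6 it was 6.94, 6.80, 6.70, 6.67, 7.34 and 7.38. Every recovery sample lay below every cold sample, as did 49.2% of all probes by deposited signal, and the recovery samples were the tighter group. The mean went from 13.3 ± 1.62 to 6.97 ± 0.348 (SD, n = 3), a 1.91-fold difference, less than that of the array median and unlike the 99th percentile, which was level.

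NDHS was among the brightest probes in both groups and lost rank among them. Between 27 and 38 of the 3439 probes were brighter than NDHS in a cold sample, and between 67 and 81 in a recovery sample. This count does not depend on how samples are scaled to each other. After quantile normalization NDHS fell by 0.97 ± 0.14 (SE, n = 3 per group; 95% confidence interval -1.29 to -0.66; limma adjusted p = 3.87e-04), a 1.97-fold difference, and the groups of 6 did not overlap, as for 15.9% of all probes that were lower by this measure. With cyclic loess the change was -1.09 (adjusted p = 1.61e-04) and as deposited -0.92 (adjusted p = 9.66e-04). When only the medians of the arrays were made equal, the sign turned: the change was 0.25 (adjusted p = 0.259) with log2 values centred and 0.53 (adjusted p = 0.0682) with signals scaled before the pseudocount was added. NDHS was thus lower relative to the bright end of the arrays. Its position relative to the median probe depended on the scaling. It was at -1.09 after quantile normalization and -1.11 with cyclic loess, but at -0.056 as deposited or centred and 0.39 scaled before the pseudocount.

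NDHN is a nuclear-encoded subunit of the stromal arm of the complex. Its deposited signal in cold samples 1 to 6 was 0.159, 0.278, 0.192, 0.213, 0.277 and 0.191. In recovery it was 0.241, 0.215, 0.153, 0.0814, 0.116 and 0.134. The groups overlapped, with recovery samples 1 and 2 inside the cold range and recovery samples 3 to 6 below it. The means were 0.219 ± 0.0155 in cold and 0.157 ± 0.0621 in recovery (SD, n = 3), a 1.39-fold difference, smaller than that of the array median.

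Relative to the other probes NDHN gained: its mean rank percentile went from 39.1 ± 3.94 in cold to 59.0 ± 7.41 in recovery (SD, n = 3). The lowest recovery sample, sample 4 at 45.1, lay below the highest cold samples, sample 2 at 46.3 and sample 5 at 50.1. After quantile normalization NDHN rose by 0.76 ± 0.24 (SE, n = 3 per group; 95% confidence interval 0.23 to 1.29; limma adjusted p = 0.0279), a 1.69-fold difference. It also rose with cyclic loess (0.83, adjusted p = 0.0166), with centring on medians (0.75, adjusted p = 0.0199) and with scaling before the pseudocount (0.74, adjusted p = 0.0348). As deposited the change was -0.43 (adjusted p = 0.180), where the median probe was at -0.86. The call was close to the threshold. It was lost without cold sample 1 (adjusted p = 0.0555), cold sample 6 (0.0569) or recovery sample 3 (0.0960). It was also lost without 4 of the 6 sample pairs. These were cold samples 1 and 2 (0.0715), 3 and 4 (0.0839) or 5 and 6 (0.0527) and recovery samples 1 and 2 (0.0834). Without cold samples 5 and 6 the change itself was larger, at 0.84, but fewer pairs were left to test it. The direction held in every fit with a sample or pair left out, with changes from 0.58 to 0.87.

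PIFI is a plastid protein, not a subunit of the complex, that is needed for the NDH-dependent rise of chlorophyll fluorescence after illumination. Its probe was dim, with deposited signals of 0.0134, 0.00906, 0.0781, 0.0576, 0.0692 and 0.0408 in cold samples 1 to 6. In recovery samples 1 to 6 it was at 0.0658, 0, 0.0282, 0, 0.0178 and 0.0654. Recovery samples 2 and 4 were listed at 0 while the other sample of each of these pairs was not, and the groups overlapped. Of all probes, 11.3 to 16.4% were at 0 in a recovery sample and 5.26 to 6.57% in a cold sample. Most of the PIFI values lie near or below the pseudocount, so no fold is given. The mean rank percentile of the probe was 10.6 ± 2.86 in cold, against 21.0 ± 5.62 in recovery (SD, n = 3), and the samples overlapped. The change after quantile normalization was 0.59 ± 0.26 (SE, n = 3 per group; 95% confidence interval 0.0033 to 1.18; limma adjusted p = 0.0994) and did not pass. It ranged from -0.31 (adjusted p = 0.399) as deposited to 0.86 (adjusted p = 0.0367) centred on medians. Without recovery sample 2 or 4, each listed at 0, the change was 0.88 (adjusted p = 0.0387) or 0.79 (adjusted p = 0.0483).

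**Figure D2:**
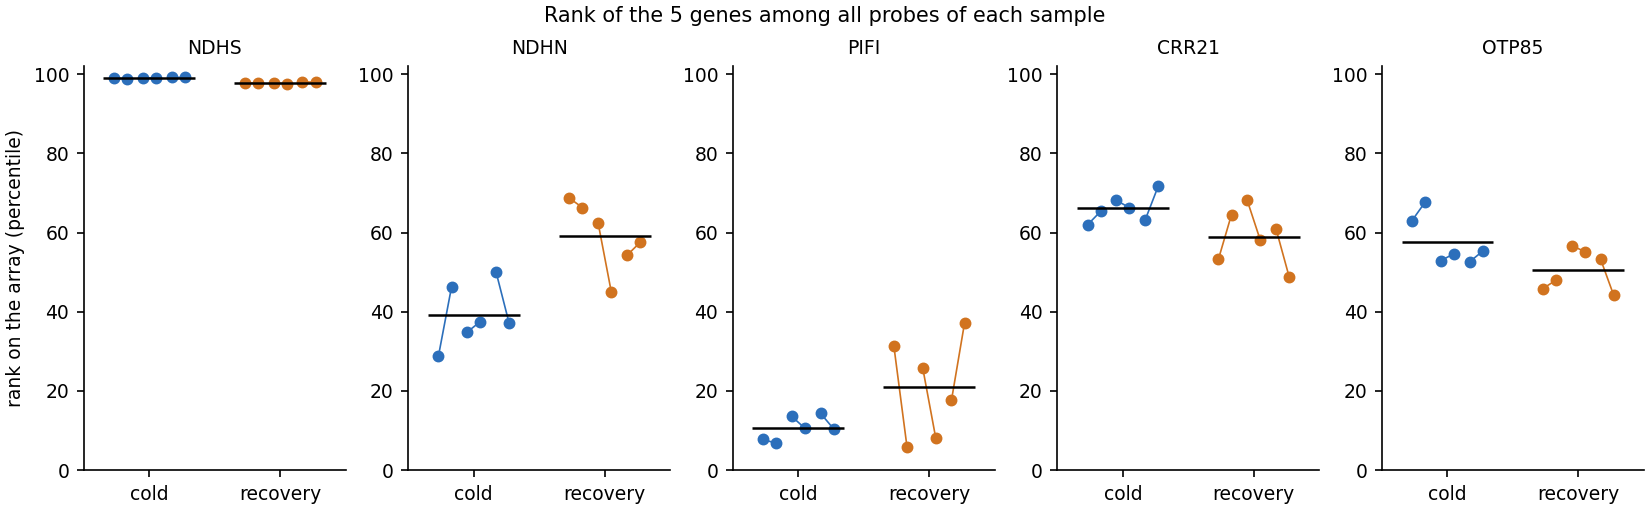
Rank of the 5 genes on the array (vertical axes, percentile among the 3439 probes of the same sample) in each cold and recovery sample. Points, joined pairs and black mean bars are as in the plot of deposited signal; the mean of NDHN moves from 39.1 to 59.0, that of NDHS goes from 99.1 to 97.8, and CRR21 and OTP85 overlap between groups.

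CRR21 is a pentatricopeptide repeat protein required for editing of a site in the plastid ndhD transcript, which encodes a membrane subunit of the complex. Its deposited signal in cold samples 1 to 6 was 0.452, 0.510, 0.500, 0.485, 0.411 and 0.554. In recovery it was 0.137, 0.202, 0.199, 0.132, 0.153 and 0.0987. The highest recovery sample, 0.202, lay below the lowest cold sample, 0.411, so the groups did not overlap in deposited signal, as for 49.2% of all probes. The mean went from 0.485 ± 0.00633 to 0.154 ± 0.0242 (SD, n = 3), a 3.16-fold difference that was larger than the 2.73-fold difference of the array median. After quantile normalization the groups overlapped and the change was -0.30 ± 0.19 (SE, n = 3 per group; 95% confidence interval -0.73 to 0.13; limma adjusted p = 0.234). The mean rank percentile went from 66.1 ± 2.12 in cold to 59.0 ± 4.11 in recovery (SD, n = 3).

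OTP85 is another pentatricopeptide repeat protein, of the class that ends in the DYW motif, and is also required for editing of the ndhD transcript. Its deposited signal in cold samples 1 to 6 was 0.464, 0.549, 0.320, 0.343, 0.296 and 0.321. In recovery it was 0.110, 0.121, 0.123, 0.120, 0.111 and 0.0844. All recovery samples lay below all cold samples, again as for 49.2% of all probes, and within cold samples 1 and 2 stood above the other 4. The mean went from 0.382 ± 0.108 to 0.111 ± 0.0123 (SD, n = 3), a 3.43-fold difference. After quantile normalization the groups overlapped and the change was -0.28 ± 0.23 (SE, n = 3 per group; 95% confidence interval -0.79 to 0.23; limma adjusted p = 0.354); without cold samples 1 and 2 it was -0.12 (adjusted p = 0.731). The mean rank percentile went from 57.7 ± 6.63 in cold to 50.6 ± 4.76 in recovery (SD, n = 3).

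The 2 editing factors had similar values in this comparison, and the intervals of both changes include 0. Under all 5 scalings both changes were negative and lay below the median probe of the same scaling. Centring shifts every probe of a sample alike, so as deposited and centred give the same position, and the 5 are not separate checks. From the median probe, CRR21 lay at -0.59 to -0.34 and OTP85 at -0.58 to -0.24. They passed the test only as deposited, with changes of -1.45 (adjusted p = 5.38e-04) for CRR21 and -1.44 (adjusted p = 0.00205) for OTP85, where the median probe was at -0.86 and 2216 probes passed. The root mean square difference between their profiles over the 12 samples, each centred on its mean after quantile normalization, was 0.267. This was the smallest among the 10 pairs of the 5 genes, whose largest was 0.932 for NDHS and PIFI. Genes outside the 5 lay nearer to each editing factor, the nearest at 0.203 for CRR21 and 0.176 for OTP85.

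**Figure D3:**
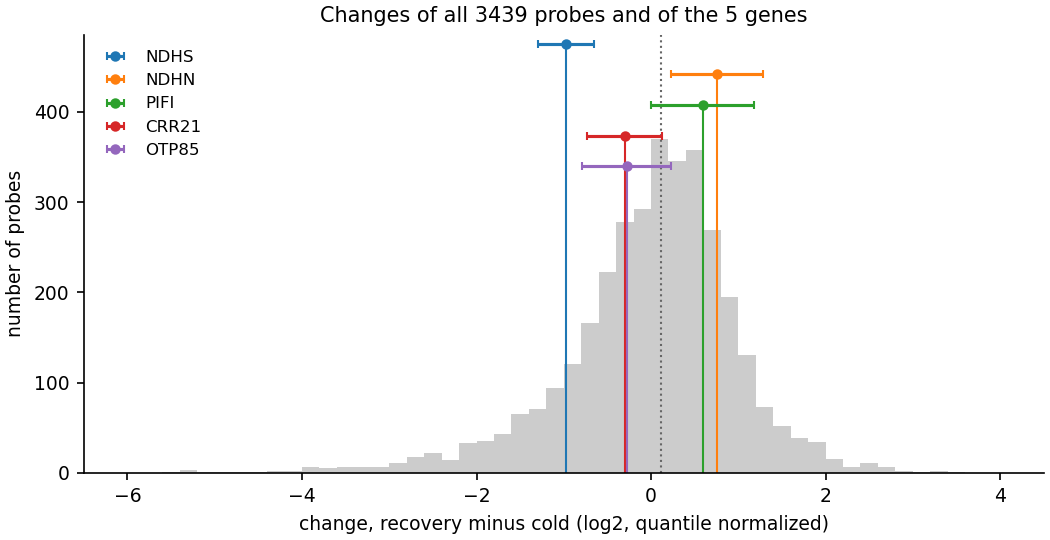
Histogram of the change, recovery minus cold (horizontal axis, log2, quantile normalized), over all 3439 probes (vertical axis, number of probes), with the median of all probes as a dotted line. Vertical lines with a point and a bar mark the changes of the 5 genes and their 95% confidence intervals; the unadjusted intervals of NDHS (-0.97), NDHN (0.76) and, narrowly, PIFI (0.59, from 0.0033) do not reach 0, although PIFI did not pass after adjustment, and 13.4% of all probes had a lower change than NDHS.

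Among all probes the changes of the 5 genes lay within the bulk of the distribution. NDHS had a lower change than most, with 13.4% of all probes below it, and NDHN a higher one, with 82.2% below it. PIFI stood at 75.3%, OTP85 at 32.8% and CRR21 at 31.9%. The histogram of changes shows each with its interval.

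**Figure D4:**
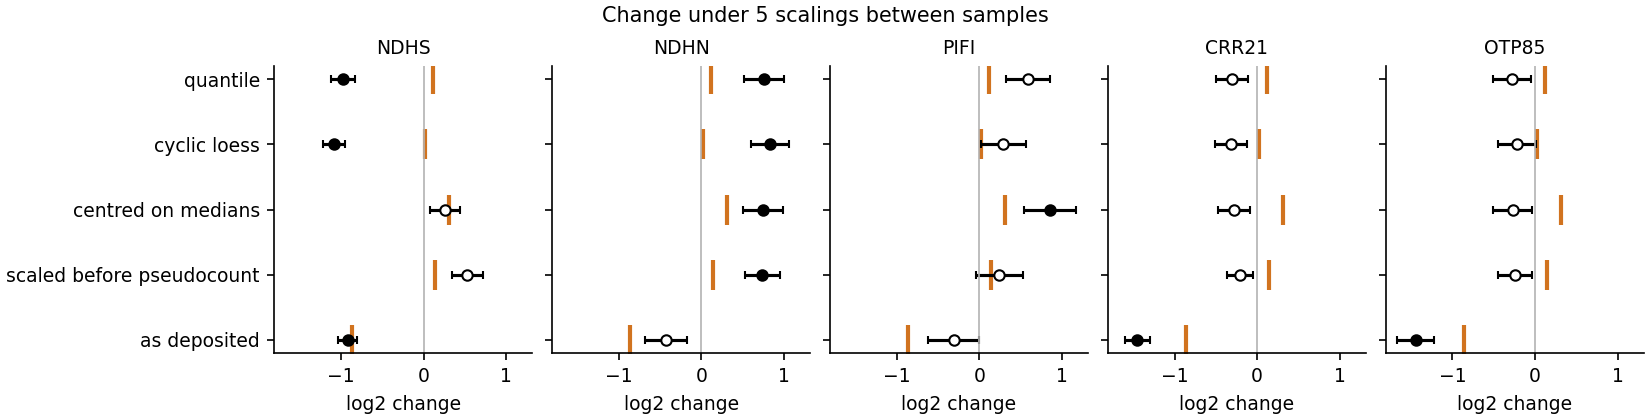
Change of each gene, recovery minus cold (horizontal axes, log2), under 5 scalings between samples (rows). Points are estimates with their SE as bars, filled where the adjusted p was under 0.05; orange ticks mark the median change of all 3439 probes. NDHN lies to the right and both editing factors to the left of the tick under each scaling, while NDHS changes sides.

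Subunits were set against editing factors through the ratio of their signals within each sample, where any factor common to an array cancels. An added offset, such as an unequal background, does not cancel. Without a pseudocount, the log2 ratio of NDHN to CRR21 went from -1.17 ± 0.115 in cold to -0.021 ± 0.498 in recovery (SD, n = 3), which is higher by 1.15 or 2.23-fold. Only recovery sample 4, at -0.69, lay below the highest cold sample, sample 5 at -0.57. With the pseudocount the difference was 1.03, and the 6 and 6 samples were just apart (highest cold -0.51, lowest recovery -0.49); with it halved they overlapped. The ratio of NDHN to OTP85 was higher by 1.21 in recovery, from -0.80 ± 0.427 to 0.41 ± 0.553, again with an overlap through recovery sample 4. On average, NDHN signal was thus higher in recovery relative to both editing factors. The change after quantile normalization had the same direction, but it comes from the same signals and is no separate support.

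For NDHS this ratio and the normalized change pointed in different directions. The log2 ratio of NDHS to CRR21 went from 4.77 ± 0.183 in cold to 5.55 ± 0.310 in recovery (SD, n = 3), higher by 0.77 or 1.71-fold, with an overlap of recovery samples 2 and 3 with cold sample 5. The ratio of NDHS to OTP85 was 5.15 ± 0.540 in cold and 5.98 ± 0.242 in recovery, higher by 0.83 or 1.77-fold. Here the lowest recovery sample, 5.77, exceeded the highest cold sample, 5.64. As signals, the editing factors thus fell further than NDHS (3.16-fold and 3.43-fold against 1.91-fold). After quantile normalization NDHS had the larger fall, -0.97 against -0.30 and -0.28. The signal at the 75th percentile of an array, above which the editing factors did not lie in any sample, differed 2.17-fold between the groups, and that at the 99th percentile 0.991-fold.

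The ratio of NDHS to NDHN was 5.95 ± 0.114 in cold and 5.57 ± 0.567 in recovery, a difference of -0.38 that is within the spread of the recovery samples. The ratio of CRR21 to OTP85 was 0.38 ± 0.390 and 0.43 ± 0.0926, a difference of 0.054, also within the spread. Of the 6 ratios without a pseudocount 1 did not overlap between groups, NDHS to OTP85, and of the 10 with it 1, NDHN to CRR21. Which ratios were apart depended on the pseudocount: halved, it was NDHS to OTP85 alone, and doubled, NDHN to CRR21 and PIFI to OTP85. Among all pairs of probes with 1 known locus, 34.7% did not overlap without a pseudocount, over probes with no 0, and 33.7% with it. No test was made of these ratios, and 1 of 6 and 1 of 10 are not above those shares. The 10 ratios with a pseudocount include those with PIFI. Their values are not given, because of PIFI signals at 0 and near the pseudocount.

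**Figure D5:**
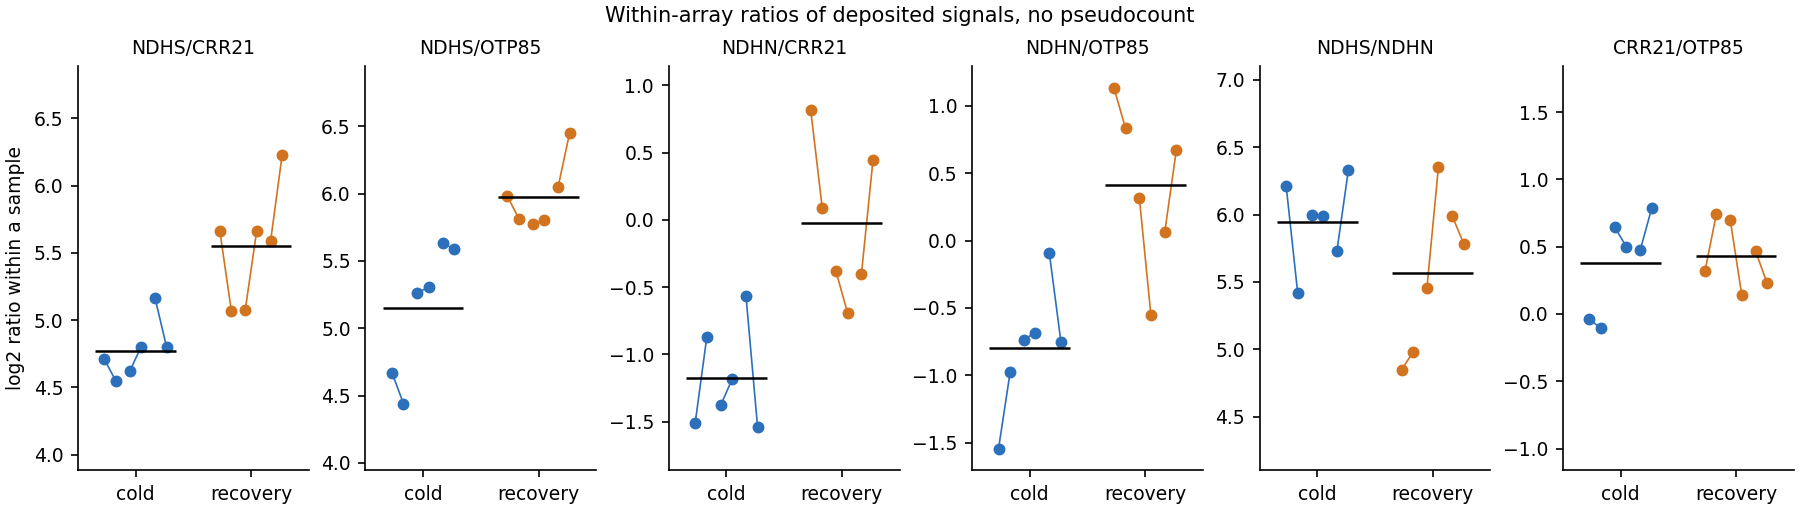
Log2 ratio of 2 deposited signals within a sample, without a pseudocount (vertical axes, log2, each of the same span), in cold and recovery. Points are samples, lines join averaged pairs and black bars are group means; the 4 ratios of a subunit to an editing factor have higher means in recovery, and CRR21 to OTP85 is level.

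Of 59 genes listed for the NDH pathway, 7 were on a probe of their own and 5 more only on probes listed with several genes, which are not named. Of 20 nuclear subunit genes 2 were measured, NDHS, which fell, and NDHN, which rose, both after quantile normalization and with the exceptions given above. Of 9 assembly and regulation genes 2 were measured, and neither passed: PIFI, and CPN60B4 (AT1G26230), a chaperonin subunit that folds the plastid-encoded subunit NdhH. Its deposited signal in cold samples 1 to 6 was 0.136, 0.180, 0.211, 0.179, 0.115 and 0.215, and in recovery samples 1 to 6 0.106, 0.0341, 0.0240, 0.0547, 0.0432 and 0.0772. All recovery samples lay below all cold samples in signal, which 49.2% of all probes share, but after quantile normalization its change was 0.021 ± 0.23 (limma adjusted p = 0.953).

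Of 24 genes of plastid RNA editing and processing 3 were measured, and none passed: CRR21, OTP85 and AT3G22690. The deposited signal of AT3G22690 in cold samples 1 to 6 was 0.0618, 0.0559, 0.125, 0.0836, 0.136 and 0.146. In recovery it was 0.0287, 0, 0.0685, 0, 0.0181 and 0.0804. Recovery samples 2 and 4 were listed at 0, the same samples as for PIFI. In these samples 11.9% and 16.2% of all probes were at 0. The change of AT3G22690 was 0.017 ± 0.33 (limma adjusted p = 0.972). None of the 6 genes of other cyclic and chlororespiratory electron flow had a probe of its own. The single-gene probes thus cover a small share of the pathway, and the other genes were not analysed here.

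The genes with the most similar profiles were found among 502 other probes with 1 locus and a mean signal above the lower quartile (503 for PIFI, whose own probe was dimmer than that). Likeness was the root mean square difference over the 12 samples, each gene centred on its mean, in log2 units. For NDHS they were AT3G50180 (0.144) and AT4G32060 (0.206), where the median over all compared genes was 0.666. For NDHN they were LRGB (AT1G32080; 0.186), the plastid envelope transporter of glycolate and glycerate, and AT4G31470 (0.265), against a median of 0.624. For CRR21 they were AT2G15440 (0.203) and AT3G26630 (0.216), against 0.545. For OTP85 they were DRT101 (AT5G18070; 0.176), annotated for DNA damage repair and toleration, and AT4G29890 (0.189), against 0.534. For PIFI the nearest, AT5G19210 (0.361) and AT5G52960 (0.431), were farther away, against 0.763.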

How the data were processed

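The members and gene lists were chosen with earlier results of these data known. The deposited table holds 1 linear signal per probe and sample for 3439 probes and 12 arrays; the background correction and scaling behind the authors' signal values are not stated in the sources used here. Probes were named through the platform annotation and gene identifiers of a RefSeq table (TAIR10.1, names only): 692 probes had 1 gene, 690 of them a known locus, 870 several genes, and 1877 were not listed. Signals were taken as log2(signal + 0.0415), the 10th percentile of positive signals, and quantile normalized (limma 3.58.1, R 4.3.3). Within a group, sample 1 was averaged with 2, 3 with 4 and 5 with 6. Their deviations from the group mean correlated, across probes, at 0.336 to 0.503 (cold) and -0.0326 to 0.0627 (recovery), and across the brightest 25% of probes at 0.721 to 0.850 (cold) and 0.293 to 0.432 (recovery). limma (lmFit, eBayes with trend) compared 3 with 3 with no covariate, and p-values were adjusted (Benjamini-Hochberg) across the table. Named were the 5 members, list genes with a probe of their own and the 2 nearest profiles per member; a planned count of pentatricopeptide repeat genes was not made. In simulated data (3439 probes, 200 changed) the procedure recovered 91% of changes of 2 and 58% of changes of 1 on the log2 scale. It called 11 of 3239 unchanged probes. Changed probes were drawn above the lower quartile of the cold means, so these rates do not cover dimmer probes such as that of PIFI. The 2 samples of a simulated pair differed only by a small noise, unlike the real recovery pairs. In the real data 40.7% of probes passed, a larger share than was changed in the simulation. All simulated recovery signals were divided by the same factor of 2. The real groups differed unequally, 2.73-fold at the median and 0.991-fold at the 99th percentile. The simulation therefore cannot show how the procedure performs under such an unequal difference. Alternatives covered the scaling, pseudocount, dim filters, 0 as missing, the variance model, the treatment of pairs, a replicate block and samples left out. Figures used matplotlib 3.10.9 (Python 3.11.15).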

Additional observations from a re-analysis of the deposited data

How the results depend on the processing

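As deposited, 2216 probes passed against 1399 after quantile normalization (192 higher and 2024 lower, against 735 and 664); 1237 were higher and 535 lower centred on medians, and 888 and 518 scaled before the pseudocount. As deposited NDHN was at -0.43 and PIFI at -0.31, both turned in sign, and CRR21 (-1.45) and OTP85 (-1.44) passed the test. NDHS turned to 0.25 centred on medians, where PIFI passed (0.86), and to 0.53 scaled before the pseudocount. With 0 as missing NDHN missed the threshold (0.60, adjusted p = 0.0654); the cause was not tested. With 1 sample or pair left out, changes ran from -1.08 to -0.88 for NDHS, 0.58 to 0.87 for NDHN, 0.30 to 0.88 for PIFI, -0.39 to -0.22 for CRR21 and -0.38 to -0.12 for OTP85, and the count from 1084 to 1402. Without either recovery sample listed at 0 PIFI passed. Between cold and recovery pairs of the same number r was 0.0564, 0.120 and -0.0050. Both samples of a pair enter the group mean, so r within pairs cannot be compared directly with these values. With pairs as a random block over the 12 samples, the fitted correlation within pairs was 0.461. Whether the pair numbers match samples across groups was not tested. With them as a replicate block 1381 probes passed, and no call among the 5 genes changed. NDHS stayed at -0.97 (limma adjusted p = 3.63e-04) and NDHN at 0.76 (adjusted p = 0.0386). Leaving samples out apart, direction and call held under 11 of 13 alternatives for NDHS, 10 of 12 for NDHN, 9 of 11 for PIFI and 12 of 13 for each editing factor. These counts include alternatives in which the direction could not turn. The dim filters, the variance model, the treatment of pairs and the replicate block left each change as it was, so only the call could differ. Among the other scalings NDHS kept its direction only with cyclic loess and as deposited. PIFI has no value without the dimmer 25% of probes, and neither PIFI nor NDHN without the dimmer 50%. Ratios without a pseudocount were chosen after seeing the data. For PIFI, signal near 0 limits what can be measured.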
